A study of Oryctolagus cuniculus with 9 samples.

Results

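The nitric oxide and cyclic GMP relaxation genes described here are 9 genes of 1 signalling chain, taken by symbol from a gene count table of rabbit urethral tissue: NOS1, GUCY1A1, GUCY1B1, NPR1, PRKG1, PDE5A, PDE9A, PDE1A and PDE3A. All 9 were found among the 28788 rows of the table, and all 9 were among the 17102 genes that passed the filter on low counts. The samples come from rabbits (Oryctolagus cuniculus) in a study of a hydrogel stent and urethral repair. It holds 9 libraries of polyadenylated RNA from urethral tissue, 3 each with the title codes S9, S7 and S6, and a library is written as code and number, for example S9_1. The labels give no strain, age, treatment, time or animal for a code, so no code is taken as the control and the groups are compared as codes only. The labels do not tie libraries to different animals. The p-values therefore measure only the spread between these libraries, which may be technical.

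Nitric oxide is made from arginine by nitric oxide synthases, in autonomic nerves by the neuronal enzyme NOS1. In smooth muscle cells it activates soluble guanylyl cyclase, a heterodimer of an alpha and a beta subunit, which makes cyclic GMP, and natriuretic peptides raise cyclic GMP through receptor cyclases such as NPR1. Cyclic GMP activates the protein kinase PRKG1, which lowers calcium and the calcium sensitivity of contraction, and phosphodiesterases end the signal. In the urethra this chain is known for relaxing the outlet during voiding.

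Library totals lay between 35127085 and 36832773 counts, so depth hardly differed. The 14 smooth muscle markers and 10 epithelial markers listed for this tissue all had enough counts to be tested. In 1 library of each group, S9_4, S7_3 and S6_4, the mitochondrial gene ATP6 was at 21.5 to 25.9 CPM, against 1946 to 3257 CPM in the other 6. The calls are given with and without these 3 libraries, and the levels, ratios and correlations with all 9. Levels are CPM, counts scaled to a common library size with TMM factors, as mean ± SD of 3 libraries. Levels of different genes are set side by side only as the deposited FPKM, which divide by gene length. A gene is said to differ where its adjusted p in edgeR's quasi-likelihood test over all 17102 genes was below 0.05.

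Most genes of the chain were higher in S9 than in S6. Both subunits of soluble guanylyl cyclase, the receptor cyclase NPR1, the kinase PRKG1 and the phosphodiesterases PDE5A and PDE3A rose, by 2.51-fold to 4.24-fold. That is 6 of 9 genes higher and 0 lower, against 6.02% of all genes tested called higher and 6.34% called lower, 12.4% together. The same shares are the background for each list counted below in S9 against S6. The neuronal synthase NOS1, PDE1A and PDE9A did not pass the test. With PDE1A, 7 of the 9 had an unadjusted p below 0.05 and a higher level in S9, against 15.4% of all genes. The median log2 fold change of the 9 genes was 1.44, and that of all genes tested was -0.011. The S9 and S6 libraries did not overlap for the same 6 genes, and over all genes tested 18.6% lay wholly higher in S9. The calls sat close to the threshold, with edgeR adjusted p between 0.0227 and 0.0425 for the 6. By edgeR the number of the 9 called higher was 3 without S6_3, and it was 0 without S9_1, without S9_2, without S6_4 and without the 3 libraries with few mitochondrial counts. Between 6 and 7 of the 9 still had an unadjusted p below 0.05 and a higher level in S9 in those 4 fits. Over all genes, in both directions, an unadjusted p below 0.05 was found for 3994 of 17557, 4174 of 17553, 4455 of 17531 and 4339 of 17223. In the same order, the number of all genes called at an adjusted p below 0.05 was 0, 4, 89 and 7. It was 1025 without S6_3 and 1197 without S7_4. Of the 180 listed genes tested by edgeR in S9 against S6, 70 were called with all 9 libraries, 38 without S7_4, 22 without S6_3, 4 without S6_4, and 0 without S9_1, without S9_2 or without the 3 libraries with few mitochondrial counts.

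**Figure D1:**
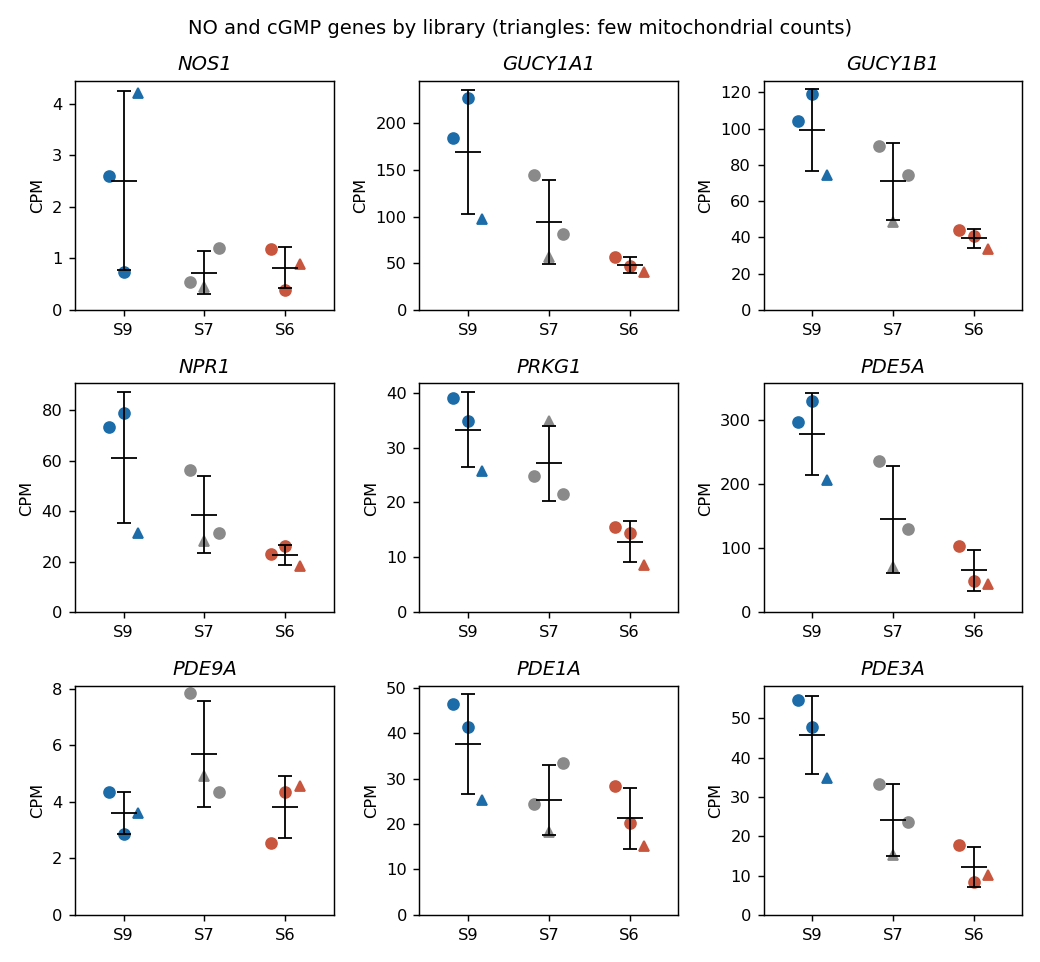
CPM of the 9 genes in each library (points, triangles for the 3 libraries with few mitochondrial counts), with the mean and SD of 3 libraries per group (bars); each panel has its own linear axis from 0. For GUCY1A1, GUCY1B1, NPR1, PRKG1, PDE5A and PDE3A every S9 library lies above every S6 library, while NOS1, PDE9A and PDE1A overlap.

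The neuronal synthase had few counts in every group. NOS1 had 98, 27 and 159 counts in S9_1, S9_2 and S9_4. It had 20, 15 and 44 counts in S7_2, S7_3 and S7_4, and 44, 13 and 33 counts in S6_2, S6_3 and S6_4. S9_1 and S9_4 were the highest libraries of the 9, and S9_2 lay among those of the other groups. The level was 2.51 ± 1.74 CPM in S9, 0.727 ± 0.411 CPM in S7 and 0.823 ± 0.403 CPM in S6. The log2 fold change of NOS1 in S9 against S6 was 1.60 (SE 0.73, adjusted p = 0.171 by edgeR), so the difference did not exceed the spread. In S9 against S7 it was 1.78 (SE 0.73, unadjusted p = 0.0380 and adjusted p = 0.538 by edgeR). Markers of the cells that could carry NOS1 were also scarce. Neuronal markers summed to 10.02 to 18.2 CPM in S9, 6.74 to 21.6 CPM in S7 and 8.02 to 19.5 CPM in S6, and CHAT and TUBB3 held most of the sum in the S6 libraries. Of the 5 tested, 1 was higher and 0 lower in S9 than in S6. It was UCHL1, a neuronal ubiquitin hydrolase, at 2.20, 3.81 and 2.17 CPM in S9_1, S9_2 and S9_4, against 1.22, 0.696 and 0.992 CPM in S6_2, S6_3 and S6_4 (adjusted p = 0.0492 by edgeR). The UCHL1 call was lost with DESeq2 size factors in edgeR and with no filter on low counts. SNAP25, a protein of synaptic vesicle release, also lay wholly higher in S9 and was not called (log2 fold change 2.81, adjusted p = 0.0533 by edgeR). SNAP25 was at 1.19, 0.383 and 1.01 CPM in S9, against 0.217, 0.0605 and 0.0804 CPM in S6. Of the 5 tested, 3 had a positive log2 fold change. CHAT and TUBB3 went the other way, at -0.63 and -0.19, and were not called. Schwann cell markers, of the glia that ensheathe nerves, had 3 of 7 called higher in S9 than in S6 (SOX10, NGFR and NCAM1) and 0 lower, with a median log2 fold change of 1.54. They summed to 296 to 419 CPM in S9, 97.9 to 308 CPM in S7 and 64.2 to 212 CPM in S6. The neuropeptide VIP was at 0 in all 9 libraries. ELAVL4, a neuronal RNA-binding protein, had 2, 12 and 7 counts in S9_1, S9_2 and S9_4 and 0 in all S7 and S6 libraries. Striated muscle markers, whose tissue also uses NOS1, summed to 5.16 to 16.0 CPM in S9, 4.73 to 9.58 CPM in S7 and 9.07 to 14.8 CPM in S6, with MYH1 and MYOG at 0. Of the 4 tested, NEB, which encodes the thin filament protein nebulin, was called higher in S9 than in S6 (log2 fold change 2.72, adjusted p = 0.0406 by edgeR), at 1.14, 3.09 and 3.86 CPM in S9, 0.627, 0.146 and 0.354 CPM in S7 and 0.325, 0.272 and 0.616 CPM in S6. The other tested striated muscle markers were not called. Their log2 fold changes in S9 against S6 were 1.54 for TTN, -0.38 for ACTA1 and -0.59 for MYBPC1. No row was found for CKM, MYH2 and TNNT3. The part of these cell types in the NOS1 values was not tested.

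Among the 3 synthases, the inducible enzyme NOS2, which macrophages and epithelia make in inflammation, was lower in S9 than in S6. It was at 0.820, 1.21 and 0.371 CPM in S9_1, S9_2 and S9_4, and at 2.65, 2.69 and 3.62 CPM in S6_2, S6_3 and S6_4. The groups did not overlap (log2 fold change -1.90, SE 0.48, adjusted p = 0.0388 by edgeR). In S7 NOS2 was at 1.61 ± 0.298 CPM, between the other groups. Leukocyte markers moved the same way. All 10 were tested and 9 were lower in S9 than in S6, and their sum was 531 to 912 CPM in S9, 2982 to 6178 CPM in S7 and 8117 to 15580 CPM in S6. The part of leukocyte number in the NOS2 difference was not tested. In bulk tissue, fewer cells of a type and less RNA per cell cannot be told apart. The endothelial synthase NOS3 varied widely within groups. It was at 14.9, 29.4 and 4.92 CPM in S9_1, S9_2 and S9_4. In S7_2 it was at 13.5 CPM but in S7_3 and S7_4 at 0.0876 and 0.327 CPM, and in S6_4 it was at 6.03 CPM but in S6_2 and S6_3 at 0.298 and 0.121 CPM. Its log2 fold change in S9 against S6 was 2.93 with an SE of 1.81 (adjusted p = 0.305 by edgeR). Endothelial markers varied less, but not all were flat. PECAM1 lay between 182 and 327 CPM in all 9 libraries, while CLDN5, a tight junction protein, was at 226, 188 and 122 CPM in S9_1, S9_2 and S9_4, 207, 51.3 and 113 CPM in S7_2, S7_3 and S7_4, and 38.9, 66.6 and 44.8 CPM in S6_2, S6_3 and S6_4. S7_2 was the highest S7 library for NOS3 and for CLDN5, but in the other groups the highest library differed. In S9 it was S9_2 for NOS3 and S9_1 for CLDN5, and in S6 it was S6_4 for NOS3 and S6_3 for CLDN5. The part of endothelial content in the NOS3 values was not tested. Per length the 3 synthases averaged 0.285 FPKM for NOS1, 0.295 FPKM for NOS2 and 1.46 FPKM for NOS3 over the 9 libraries, with overlapping ranges.

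Regulators of synthesis differed in both directions between S9 and S6. Of the 19 genes of nitric oxide synthesis listed, all were tested, 4 were higher and 3 lower, with a median log2 fold change of 0.31. Higher were DDAH2 and DDAH1, enzymes that break down the endogenous synthase inhibitor dimethylarginine, CAV1, the caveolar protein that binds and restrains NOS3, and GCHFR, the feedback regulator of the enzyme that starts tetrahydrobiopterin synthesis. DDAH2 was at 208 ± 17.9 CPM in S9, against 97.2 ± 6.52 CPM in S6 (log2 fold change 1.09, SE 0.13, adjusted p = 0.0117 by edgeR). DDAH1 had a log2 fold change of 2.54 and CAV1 of 1.36. Lower beside NOS2 were NOSTRIN, a protein of NOS3 trafficking, at 2.46 ± 0.362 CPM in S9, against 7.12 ± 0.495 CPM in S6, and ARG1, an arginase that competes for arginine. ARG1 was at 0.291, 3.50 and 1.06 CPM in S9_1, S9_2 and S9_4, against 8.26, 142.7 and 14.95 CPM in S6_2, S6_3 and S6_4, so S6_3 alone made most of the S6 mean. The cofactor and transport genes GCH1, PTS, SPR, ASS1 and SLC7A1 had log2 fold changes between -0.19 and 0.31 and did not pass the test. Also uncalled, SLC7A2 and ASL lay wholly higher in S9 than in S6. Their log2 fold changes were 1.05 and 0.66 (adjusted p = 0.1045 and 0.1739 by edgeR). Of the 19 genes, 11 had a positive log2 fold change.

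The receptor of nitric oxide was among the more abundant parts of the chain. GUCY1A1, the alpha subunit of soluble guanylyl cyclase, was at 184, 227 and 97.0 CPM in S9_1, S9_2 and S9_4. It was at 144, 57.0 and 81.8 CPM in S7_2, S7_3 and S7_4, and at 57.1, 47.5 and 40.3 CPM in S6_2, S6_3 and S6_4. The 3 S9 libraries lay above the 3 S6 libraries, and S7 overlapped both. The log2 fold change in S9 against S6 was 1.81 (SE 0.39, adjusted p = 0.0269 by edgeR). GUCY1B1, the beta subunit, was at 104, 119 and 74.5 CPM in S9, 90.3, 48.4 and 74.4 CPM in S7 and 44.0, 41.1 and 33.5 CPM in S6, in the same order of libraries. Here every S7 library also lay above every S6 library. Its log2 fold change in S9 against S6 was 1.33 (SE 0.26, adjusted p = 0.0227 by edgeR). Pearson's r between the log2 CPM of the subunits was 0.980 over the 9 libraries, a description of libraries that share their tissue makeup. Per length, the ratio of alpha to beta subunit was 0.936, 1.01 and 0.690 in S9_1, S9_2 and S9_4, 0.846, 0.625 and 0.583 in S7_2, S7_3 and S7_4, and 0.689, 0.613 and 0.638 in S6_2, S6_3 and S6_4. The lowest S9 ratio stood just above the highest S6 ratio, and S7 overlapped both. GUCY1A2, a second alpha subunit, was scarcer, with 1.22, 0.384 and 0.212 FPKM on average in S9, S7 and S6. It was also called higher in S9 than in S6, at 18.1 ± 10.1 CPM and 3.23 ± 0.588 CPM (log2 fold change 2.48, SE 0.52, adjusted p = 0.0253 by edgeR).

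NPR1, the receptor cyclase for atrial and brain natriuretic peptides, was at 73.4, 79.0 and 31.6 CPM in S9_1, S9_2 and S9_4. It was at 56.4, 28.2 and 31.6 CPM in S7_2, S7_3 and S7_4, and at 23.2, 26.2 and 18.4 CPM in S6_2, S6_3 and S6_4. S9_4 stood well under the other S9 libraries and close to S7. NPR1 was the least firm of the 6 calls in S9 against S6, with a log2 fold change of 1.44 (SE 0.38, adjusted p = 0.0425 by edgeR). The call was lost under 12 of 20 alternatives, with log2 fold changes from 1.11 to 1.77. Its peptides NPPA and NPPB had no count in any library, where 3 counts in 1 library would be the most a count of 0 allows. NPR2, the related cyclase for C-type natriuretic peptide, was at 64.2 ± 9.40 CPM in S9, against 25.5 ± 3.59 CPM in S6 (log2 fold change 1.33, SE 0.20, adjusted p = 0.0156 by edgeR). Its peptide NPPC was at 2.41, 14.4 and 1.22 CPM in S9_1, S9_2 and S9_4, and at 0.515, 0 and 0.134 CPM in S6_2, S6_3 and S6_4, and was not called (adjusted p = 0.0716 by edgeR). NPR3, the receptor that clears these peptides, had a log2 fold change of 0.39 and was not called. Of the 15 cyclases and natriuretic peptide genes listed, 9 were tested, 5 were higher and 0 lower in S9 than in S6, with a median of 1.44. The 5 include GUCY1A1, GUCY1B1 and NPR1. GUCY2F and GUCA2B, genes of retina and gut, were at 0 as well.

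PRKG1, the cyclic GMP-dependent kinase of smooth muscle, differed in its pattern over libraries. It was at 39.1, 34.9 and 25.7 CPM in S9_1, S9_2 and S9_4, 24.9, 34.8 and 21.6 CPM in S7_2, S7_3 and S7_4, and 15.5, 14.4 and 8.66 CPM in S6_2, S6_3 and S6_4. Both S9 and S7 lay wholly above S6, and S7_3, the lowest S7 library for both cyclase subunits, was the highest for PRKG1. The log2 fold change was 1.37 in S9 against S6 (SE 0.28, adjusted p = 0.0248 by edgeR) and 1.08 in S7 against S6 (SE 0.28, adjusted p = 0.129 by edgeR). Without the 3 libraries with few mitochondrial counts, which include S7_3, the S7 value was 0.64. PRKG2, the related kinase of gut and bone, was at 1.93 ± 1.62 CPM in S9, against 1.10 ± 1.30 CPM in S6 and was not called.

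Known partners of the kinase also differed between S9 and S6. Among the kinases and their targets listed, 18 genes were tested, 7 were higher and 0 lower, with a median log2 fold change of 0.96. PRKG1 itself is among the 18 and the 7. Over all genes tested, 6.02% were called higher and 6.34% lower. HSPB6, a small heat shock protein that relaxes smooth muscle when phosphorylated, was at 125 ± 28.4 CPM in S9, against 33.2 ± 10.6 CPM in S6 (log2 fold change 1.92, SE 0.38, adjusted p = 0.0231 by edgeR). IRAG1, which links the kinase to the calcium release channel, was at 187 ± 52.2 CPM in S9, against 53.8 ± 11.2 CPM in S6. KCNMA1, the large-conductance potassium channel, was at 145 ± 41.0 CPM in S9, against 32.3 ± 12.7 CPM in S6. PPP1R12A, the targeting subunit of myosin phosphatase, and ABCC4, an exporter of cyclic nucleotides, had log2 fold changes of 1.19 and 0.98. RGS2, which limits Gq signalling and is a substrate of the kinase, was at 45.7 ± 13.9 CPM in S9, against 97.5 ± 42.5 CPM in S6 and was not called (adjusted p = 0.0552 by edgeR). RHOA, PPP1CB and ATP2A2 had log2 fold changes between -0.27 and 0.34 and were not called, though RHOA and PPP1CB lay wholly lower in S9. Also uncalled, KCNMB1, PLN and ITPR1 lay wholly higher in S9. Their log2 fold changes were 1.86, 1.72 and 0.94 (adjusted p = 0.0543, 0.0685 and 0.108 by edgeR). Of the 18 tested, 11 lay wholly higher in S9, against 18.6% of all genes, and 3 wholly lower.

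The enzymes that end the signal did not all move together. PDE5A, the phosphodiesterase specific for cyclic GMP and the target of sildenafil, was at 297, 329 and 206 CPM in S9_1, S9_2 and S9_4. It was at 235, 70.4 and 130 CPM in S7_2, S7_3 and S7_4, and at 103, 49.0 and 44.7 CPM in S6_2, S6_3 and S6_4. The S9 libraries lay above all of S6, and S7_2 reached the S9 range while S7_3 lay within that of S6. With a log2 fold change of 2.08 in S9 against S6 (SE 0.47, adjusted p = 0.0304 by edgeR), PDE5A had the largest value of the 9 genes. PDE3A, whose breakdown of cyclic AMP is inhibited by cyclic GMP, was at 54.7, 47.8 and 34.9 CPM in S9, 33.4, 15.3 and 23.6 CPM in S7 and 17.9, 8.35 and 10.2 CPM in S6. It was the only one of the 9 genes whose S9 libraries lay above all S7 libraries, where 8.36% of all genes tested did so. Its log2 fold change was 1.92 in S9 against S6 (SE 0.37, adjusted p = 0.0227 by edgeR) and 0.93 in S9 against S7 (SE 0.36, adjusted p = 0.538 by edgeR).

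PDE1A and PDE9A were not called, and they differed from each other. Over the 9 libraries Pearson's r of log2 CPM with PDE5A was 0.831 for PDE1A and -0.061 for PDE9A. PDE1A, a calmodulin-dependent enzyme, was at 46.4, 41.3 and 25.4 CPM in S9_1, S9_2 and S9_4, 24.4, 18.2 and 33.4 CPM in S7, and 28.4, 20.2 and 15.1 CPM in S6. S9_4 lay below S6_2, so the groups overlapped (log2 fold change 0.83 in S9 against S6, SE 0.32, adjusted p = 0.119 by edgeR). Under 1 of 20 alternatives PDE1A was called higher in S9 than in S6, with log2 fold changes from 0.52 to 1.095 over the 20. PDE9A, the phosphodiesterase with the highest affinity for cyclic GMP, had 105 to 164 counts in the S9 libraries, 159 to 287 in those of S7 and 94 to 170 in those of S6. Its level was 3.60 ± 0.732 CPM in S9, 5.69 ± 1.88 CPM in S7 and 3.81 ± 1.10 CPM in S6. The log2 fold change was -0.080 in S9 against S6 (SE 0.36, adjusted p = 0.908 by edgeR) and -0.66 in S9 against S7 (SE 0.36, adjusted p = 0.587 by edgeR), and the sign of the first changed between alternatives.

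**Figure D2:**
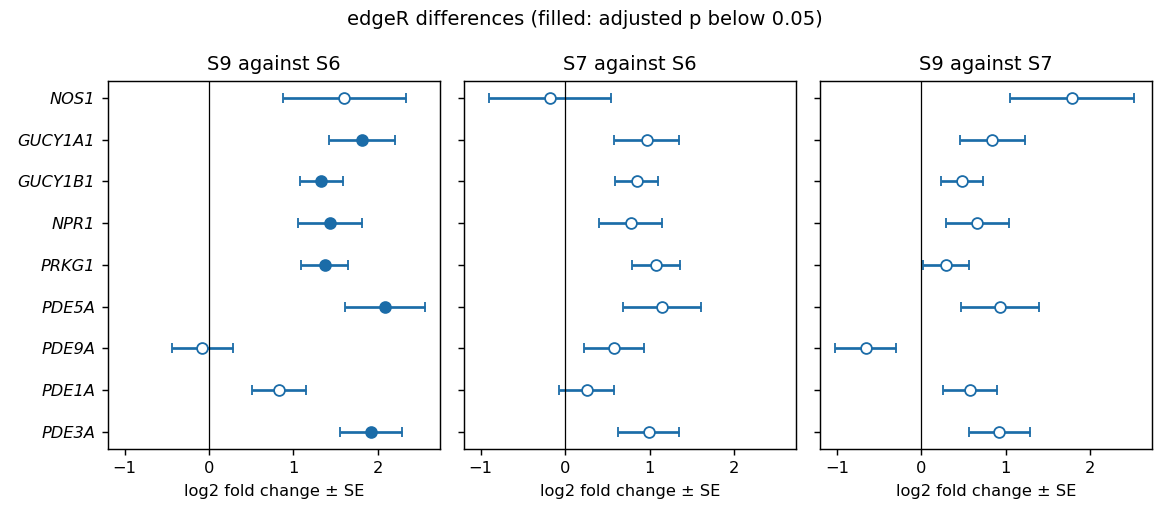
Log2 fold changes from edgeR (points) with their standard errors (bars) for the 9 genes in each comparison; filled points have an adjusted p below 0.05. In S9 against S6, 6 genes are filled, from 1.33 for GUCY1B1 to 2.08 for PDE5A, and no point is filled in the other comparisons.

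Over all phosphodiesterase families, 20 of the 23 genes found were tested, and 4 were higher and 1 lower in S9 than in S6 (median log2 fold change 0.37). The 4 include PDE5A and PDE3A. PDE1C, which is scarce at 0.668 FPKM in S9 and 0.0732 FPKM in S6, had a log2 fold change of 3.14 with an SE of 0.87, and the cyclic AMP enzyme PDE4A one of 0.56. PDE4B, a cyclic AMP enzyme of leukocytes, was lower, at 14.9 ± 2.23 CPM in S9, against 36.6 ± 11.9 CPM in S6 (log2 fold change -1.30, SE 0.24, adjusted p = 0.0204 by edgeR). PDE2A, which cyclic GMP stimulates, and PDE5A were the most abundant per length, and their order differed by group. PDE2A averaged 36.8 FPKM in S9, 24.0 in S7 and 15.4 FPKM in S6, and PDE5A 38.7, 19.5 and 8.86 FPKM in the same groups. PDE2A was at 161 ± 52.9 CPM in S9, against 69.9 ± 6.19 CPM in S6 and was not called (adjusted p = 0.0695 by edgeR). PDE11A was at 4.45, 10.2 and 3.23 CPM in S9_1, S9_2 and S9_4, above the 0.605 to 2.20 CPM of the S7 and S6 libraries, and was not called either (adjusted p = 0.0590 by edgeR in S9 against S6). PDE3B had a log2 fold change of 0.49 (adjusted p = 0.180 by edgeR).

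Between genes, PDE5A and both cyclase subunits had the highest levels per length in all 3 groups and NOS1 the lowest, with changes of order between. In S9 the order was PDE5A with 38.7 ± 8.03 FPKM, GUCY1B1 with 32.0 ± 6.55, GUCY1A1 with 28.9 ± 10.7 and NPR1 with 13.0 ± 5.30 FPKM. Below these came PDE3A with 4.90 ± 1.05, PDE1A with 3.73 ± 1.06, PRKG1 with 3.64 ± 0.724 and PDE9A with 3.27 ± 0.727 FPKM, and NOS1 was last with 0.538 ± 0.380 FPKM. The first 3 overlapped over the libraries, as did the next 4 after NPR1, while the steps from GUCY1A1 to NPR1, from NPR1 to PDE3A and from PDE9A to NOS1 did not. In S6 GUCY1B1 came first with 12.3 ± 1.59 FPKM, ahead of PDE5A with 8.86 ± 4.53 and GUCY1A1 with 7.99 ± 1.44 FPKM, and PDE9A with 3.31 ± 0.948 FPKM stood above PDE1A, PRKG1 and PDE3A, each overlapping its neighbour. The ratio of PDE5A to GUCY1B1 per length was 1.23, 1.195 and 1.197 in S9_1, S9_2 and S9_4, 1.13, 0.628 and 0.755 in S7_2, S7_3 and S7_4, and 1.01, 0.516 and 0.576 in S6_2, S6_3 and S6_4. All S9 libraries had the higher ratio.

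S7 lay between the other groups for most of the chain but was not separated from either by the test. The mean CPM was ordered S9, S7, S6 from high to low for 7 of the 9 genes, against 27.1% of all genes tested, but for none of the 9 were the 3 groups fully apart. In S7 against S6, edgeR called 0 of the 9 genes, with 0.111% of all genes called, and 5 were higher with an unadjusted p below 0.05 (GUCY1A1, GUCY1B1, PRKG1, PDE5A and PDE3A), against 8.68% of all genes. DESeq2 called 2, GUCY1B1 with a log2 fold change of 0.85 (DESeq2 adjusted p = 0.0390) and PRKG1 with 1.08 (DESeq2 adjusted p = 0.0112), where it called 8.29% of all genes. The median of the 9 genes was 0.85 by edgeR, and S7 lay wholly above S6 for 3 of them, GUCY1B1, NPR1 and PRKG1, against 10.7% of all genes. In S9 against S7, edgeR called 0 of the 9 genes and 0% of all genes, and 2 of the 9, NOS1 and PDE3A, were higher with an unadjusted p below 0.05, against 4.15% of all genes. DESeq2 also called 0 of the 9 there, with 0.719% of all genes called. The median of the 9 genes in S9 against S7 was 0.66. The 3 comparisons share libraries and are not independent. By edgeR no gene of the synthesis, cyclase, phosphodiesterase or kinase lists was called in either comparison. In S7 against S6 DESeq2 called 5 of 19 genes of the synthesis list, 2 of 9 of the cyclase list (GUCY1B1 and NPR2), 1 of 20 phosphodiesterases (PDE4B, lower) and 4 of 18 of the kinase list, and in S9 against S7 it called none of them. The smallest p-values in S7 against S6 belonged to DDAH2 and CAV1, NPR2 and GUCY1B1, PDE4B and PDE3A, and RGS2 and PRKG1. Those in S9 against S7 belonged to NOS1 and NOSTRIN, GUCY1A2 and NPPC, PDE11A and PDE6G, and ABCC5 and PPP1R12A.

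Smooth muscle markers differed between the groups in the same direction as the chain. Of 14 markers 11 were higher and 0 lower in S9 than in S6, with a median log2 fold change of 1.96. Their sum was 7695 to 14510 CPM in S9, 4085 to 12670 CPM in S7 and 2422 to 4151 CPM in S6. MYH11, the smooth muscle myosin heavy chain, was at 4592, 5607 and 2885 CPM in S9_1, S9_2 and S9_4, 4364, 852 and 1886 CPM in S7_2, S7_3 and S7_4, and 1357, 594 and 615 CPM in S6_2, S6_3 and S6_4. Over the 9 libraries, Pearson's r of log2 CPM with the mean of the markers was 0.977 for GUCY1A1, 0.980 for GUCY1B1, 0.976 for PDE5A, 0.953 for PDE3A and 0.924 for NPR1. It was 0.765 for PRKG1 and 0.759 for PDE1A, but 0.317 for NOS1 and 0.107 for PDE9A. The points share libraries and tissue makeup, so these values are descriptions. Vascular pericyte markers, which can also carry the chain, summed to 1510 to 2248 CPM in S9, 1104 to 2036 CPM in S7 and 728 to 931 CPM in S6, with 4 of 8 called higher in S9 than in S6. Endothelial markers had 3 of 11 called higher (CLDN5, EMCN and ROBO4), and their sums overlapped, at 1280 to 2791 CPM in S9 and 1391 to 1661 CPM in S6. VWF alone held 571 to 1529 CPM of these sums in S9 and 775 to 937 CPM in S6. All 11 had a positive log2 fold change, with a median of 0.76, and 6 lay wholly higher in S9, against 18.6% of all genes tested. Their mean log2 CPM did not overlap, at 6.24 to 7.07 in S9 and 5.72 to 6.18 in S6.

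The genes were also set against the smooth muscle markers of the same library. This relative level is the gene's log2 CPM minus the mean log2 CPM of the 14 markers. The same subtraction applied to every gene and lowered its S9 against S6 difference by 1.775. The called genes, at log2 fold changes of 1.33 to 2.08, therefore had to lose most of theirs, whichever cells carry them. Since the markers themselves differed, the median relative difference over all genes tested was -1.78 in S9 against S6, -1.16 in S7 against S6 and -0.62 in S9 against S7. For GUCY1A1 the relative level was -1.198, -1.24 and -1.60 in S9_1, S9_2 and S9_4, and -1.42, -1.18 and -1.32 in S6_2, S6_3 and S6_4. The groups overlapped, with a difference of -0.040 on the log2 scale (two-sided exact permutation p = 0.800), where the unscaled log2 fold change was 1.81. PDE5A was the nearest to the markers, at -0.507, -0.704 and -0.514 in S9, -1.02, -1.18 and -0.912 in S7, and -0.576, -1.14 and -1.17 in S6. Its difference was 0.39 in S9 against S6 (exact permutation p = 0.200) and 0.46 in S9 against S7, where the libraries did not overlap (exact permutation p = 0.1), as for 0.971% of all genes tested. With 3 libraries against 3 the smallest two-sided exact p is 0.1, so no relative level could pass the threshold. The difference in S9 against S6 was 0.19 for PDE3A, -0.39 for PRKG1, -0.43 for NPR1 and -0.41 for NOS1, and all 4 overlapped between the groups.

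Relative to the markers, 3 of the 9 genes were lower in every S9 library than in every S6 library, against 78.9% of all genes tested, so this is the common position. GUCY1B1 was at -2.02, -2.17 and -1.98 in S9_1, S9_2 and S9_4 and at -1.80, -1.39 and -1.59 in S6_2, S6_3 and S6_4, a difference of -0.47. PDE1A differed by -0.95, at -3.18, -3.70 and -3.54 in S9 and -2.43, -2.42 and -2.73 in S6. For PDE9A the difference was -1.83, near the median of all genes, with -6.59, -7.52 and -6.34 in S9 and -5.88, -4.62 and -4.45 in S6. Each had the smallest p the design allows (exact permutation p = 0.1). The differences of GUCY1B1 and PDE1A were smaller in size than that median. In S7 against S6 the relative levels of PDE1A and GUCY1A1 lay wholly lower, with differences of -0.90 and -0.29, as did those of 41.5% of all genes. In S9 against S7 PDE9A lay wholly lower with a difference of -1.24, where 3.89% of all genes did. The part of smooth muscle content in the differences of the chain was not tested.

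**Figure D3:**
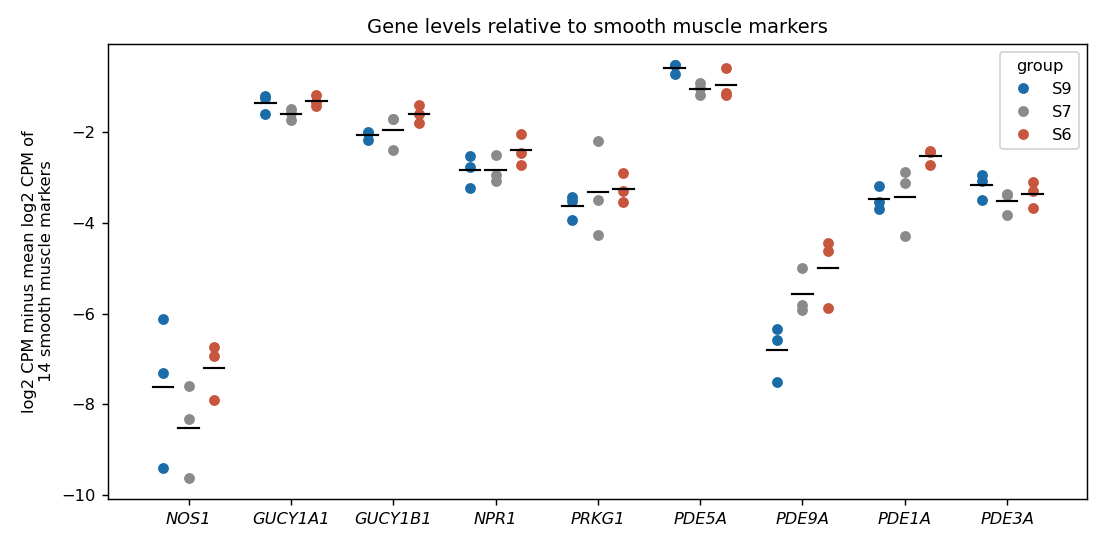
Log2 CPM of each gene minus the mean log2 CPM of 14 smooth muscle markers in the same library (points, 3 per group), with group means (lines). GUCY1A1, PRKG1 and PDE3A overlap between S9 and S6, PDE9A and PDE1A lie lower in S9 than in S6, and NOS1 varies over the widest range of the 9.

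The genes most like each of the 9 over the 9 libraries, by Pearson's r of log2 CPM among tested genes with a symbol and a mean of at least 5 CPM, were as follows. PDE5A was closest to MYH11 (r = 0.995), TCEAL4 and TNS2. GUCY1A1 was closest to RUSC2 (0.992), SPEG and FZD7, and GUCY1B1 to RTL5 (0.993), ADAMTSL4 and PDZRN4. PDE3A was closest to ANKRD6 (0.994), EIF4EBP2 and TIMP3, and NPR1 to CORO6 (0.992), EPHA3 and AMOTL2. PRKG1 was closest to IGDCC4 (0.991), BOC and ARHGEF25, while PDE1A had as nearest gene the urothelial UPK1B (0.974), then PTCHD1 and LIFR. PDE9A was closest to CDC34 (0.945) and NOS1 to TUBGCP3 (0.970). Each is the highest of 10935 or 10936 values from 9 points, so high values arise readily and no test is attached. Among the 9 genes themselves, r was 0.985 between PDE5A and PDE3A and 0.749 between PDE5A and PRKG1. NOS1 reached 0.548 at most, with PDE3A, and PDE9A 0.103, with NPR1.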

How the data were processed

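Polyadenylated RNA of rabbit urethral tissue was sequenced in 9 libraries, 3 for each title code. The authors deposited raw read counts per gene, and the tools named in the submitters' processing notes are fastp, HISAT2 and HTSeq (versions not listed). For build, annotation and strand setting the sources used here name nothing, so overlapping genes cannot be told apart and no coordinates are printed. The authors also deposited FPKM, which matched count, column total and 1 length per gene in all 172961 values above 0 (relative tolerance 1e-04). RefSeq names for assembly mOryCun1.1 gave symbols to 515 of 12867 LOC rows, among them RGS2 and PDE6G.

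Genes were kept by filterByExpr (minimum count 10, minimum total 15). Counts were scaled by TMM and fitted in 1 model of 3 groups with edgeR 4.0.16 (robust quasi-likelihood, R 4.3.3, 6 residual degrees of freedom). P-values were adjusted by Benjamini-Hochberg over all 17102 genes, and standard errors were derived from the F statistic. Log2 CPM used a prior count of 2. Alternatives used DESeq2 1.42.0, limma 3.58.1 on log2(FPKM + 1) or log2(FPKM + 0.1), other filters and scalings, a replicate block and each library left out. A gene length correction (spline with 5 degrees of freedom) was chosen after seeing the data. The fits were run on simulated data to check the code. Planted changes were larger than most called among the 9 genes, and the spread was capped. The outcome therefore does not bear on those calls. The 9 genes, the lists, the marker lists and the tests were chosen with earlier results of these data known. Named genes were the 9, up to 6 called genes per pathway list and comparison (the 2 with the smallest p where none was called), and a fixed set of related genes. GCH1, PTS, SPR, ASS1, SLC7A1, NPPA, NPPB, RHOA, PPP1CB, ATP2A2 and genes at 0 were added after their values were seen. So were SLC7A2, ASL, KCNMB1, PLN, ITPR1, CHAT, TUBB3, TTN, ACTA1 and MYBPC1. Floors cover counting error only.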

Additional observations from a re-analysis of the deposited data

How the results depend on the processing

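The 9 genes' log2 fold changes were recomputed 540 times over 20 alternatives and 3 comparisons: 489 kept direction and side of the threshold, 39 kept direction but lost the call, 3 gained one and 9 changed sign. In S9 against S6 the 6 called genes kept their direction in every alternative. Their number called was 0 with the replicate block, 0 without the 3 libraries with few mitochondrial counts, and 0 to 6 with 1 library left out. An unadjusted p below 0.05 was found for 6 of the 9 with the block and 7 without the 3 libraries. Over all genes, in both directions, it was found for 3655 of 17102 and 4339 of 17223. All genes called numbered 4112 with DESeq2, 16 with the block, 7 without the 3 libraries and 0 to 2076 with 1 library left out, against 2115. In S7 against S6 DESeq2 called 2 of the 9 genes. All genes called there numbered 1417 with DESeq2, 52 and 37 with limma on log2(FPKM + 1) and log2(FPKM + 0.1), 1 with the block, 0 with the 2 groups alone, 4 with a term for the mitochondrial class, 0 without the 3 libraries and 0 to 10 with 1 library left out, against 19. In S9 against S7 they numbered 123 with DESeq2, 1 without the 3 libraries and 0 to 1 with 1 left out, against 0. PDE9A changed sign in S9 against S6, to 0.00022 with limma on log2(FPKM + 0.1), 0.069 without the 3 libraries and 0.21 with the length correction, and ran from -0.30 to 0.084 with 1 library left out. NOS1 in S7 against S6 was 0.13 without the 3 libraries and ran from -0.73 to 0.18. The cause of these changes was not tested. With the block 1 of 180 listed genes was called (CD68), against 70. Library numbers were not treated as pairing, since the labels do not say what a number shares and not every same-numbered pair correlated over 0.1. Deviations of same-numbered libraries correlated at -0.065 to 0.14, over 0.1 in 3 of 7 pairs, and those of other pairs at -0.18 to 0.10. Whether the numbers mark a shared source was not settled. Depth limits NOS1, with 13 counts in its lowest library.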

Other observations

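The cyclic AMP arm of smooth muscle relaxation and the contraction arm also held genes that were higher in S9 than in S6. Of 16 tested genes of the cyclic AMP arm 4 were called higher and 0 lower by edgeR, with a median log2 fold change of 0.45, where 6.02% of all genes tested were called higher and 6.34% lower. No gene of either arm stayed called without the 3 libraries with few mitochondrial counts. In that fit 4 of the cyclic AMP arm and 11 of the contraction arm were higher at an unadjusted p below 0.05. Over all genes, in both directions, 4339 of 17223 had such a p. VIPR2, a receptor for vasoactive intestinal peptide, was at 78.1 ± 26.7 CPM in S9, 32.5 ± 17.9 CPM in S7 and 8.32 ± 4.06 CPM in S6 (a log2 fold change of 3.23 in S9 against S6, SE 0.51, adjusted p = 0.0166 by edgeR), a larger value than that of any of the 9 genes of the cyclic GMP chain, while VIP itself had no count. The adenylyl cyclases ADCY5, ADCY9 and ADCY3 had log2 fold changes of 1.68, 1.502 and 1.34. The catalytic and regulatory subunits of protein kinase A (PRKACA, PRKACB, PRKAR1A, PRKAR2A and PRKAR2B) had log2 fold changes between -0.40 and 0.56 and were not called.

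Of 18 tested genes of the contraction arm 6 were higher and 0 lower in S9 than in S6 (median 0.86). CACNA1C, the L-type calcium channel, was at 36.5 ± 8.97 CPM in S9, against 12.8 ± 0.866 CPM in S6, and ROCK2, a kinase that inhibits myosin phosphatase, at 197 ± 31.1 CPM in S9, against 91.6 ± 12.8 CPM in S6. PLCB4, ARHGEF25 and PLCB1 had log2 fold changes of 2.01, 1.03 and 0.67. The muscarinic receptor CHRM3 was at 4.15 ± 3.27 CPM in S9, against 0.0833 ± 0.0706 CPM in S6. By edgeR neither list held a called gene in S7 against S6, where VIPR2, ADCY6, CACNA1C and PLCB4 had the smallest p-values, or in S9 against S7, where ADCY3, VIPR2, CHRM3 and PLCB1 had them. In S9 against S6 both list medians were positive, as was the 1.96 of the smooth muscle markers. In S9 against S7 the medians were 0.049 for the cyclic AMP arm, 0.37 for the contraction arm and 0.52 for the markers. The part of smooth muscle content in either list was not tested.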
